A study of Mus musculus with 32 samples.

Results

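The Nanog locus is a stretch of 170 kb on mouse chromosome 6 (mm9 chr6:122550000-122720000) that carries Gdf3, Dppa3, Nanog and Slc2a3 in this order. It is described here through every listed ChIP-seq peak that overlaps it by at least 1 bp. Of the 387563 peaks in 26 lists, 194 lie in this stretch. The study used ChIP-seq, the sequencing of DNA pulled down with a chromatin protein, on J1 mouse embryonic stem (ES) cells grown in serum with LIF, and set Wild-type cells beside Taf5l-KO and Taf6l-KO cells. Antibodies to Oct4, Myc, H3K9ac, H3K4me3, RNA polymerase II (RNAP) and its forms phosphorylated on serine 5 (RNAP-ser5) or serine 2 (RNAP-ser2) were each used once per genotype, so 21 of the lists come from 1 library each. The other 5 lists come from streptavidin pull-downs (bioChIP) of TAF5L with a Flag-Biotin tag (TAF5L-FB, lines A5 and A6), TAF6L with the same tag (TAF6L-FB, lines 15 and 9) and the BirA control. At the left edge a wild-type RNAP-ser2 peak with a fold enrichment of 3.88 crosses into the locus, and the nearest peak left out is a Taf5l-KO RNAP-ser2 peak 379 bp away (3.45). At the right edge the last peak is a Taf6l-KO RNAP-ser2 peak ending at +59.6 kb from the Nanog start (3.32), and the nearest peak left out is a wild-type RNAP peak 586 bp beyond the edge (4.82). The sources used here do not give how the knockout lines were made, whether each is 1 clone, or the BirA content of the tagged lines. Transcript levels were not analysed here, so the ES cell state was not checked against expression of its markers.

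Nanog encodes a homeodomain protein that stabilises the pluripotent state, Dppa3 (also called Stella) a maternal factor that protects DNA methylation patterns, Gdf3 a TGF-beta family ligand, and Slc2a3 the glucose transporter GLUT3. Nanog is a textbook target of Oct4, which acts with Sox2 at the promoter and at enhancers known at about 5 and 45 kb upstream and 60 kb downstream of the gene. H3K4me3 marks promoters, H3K9ac marks active promoters and enhancers, serine 5 phosphorylation goes with early and serine 2 phosphorylation with productive elongation. TAF5L and TAF6L are subunits of SAGA-type coactivators, which acetylate histone H3.

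Positions are given in kb from the Nanog start, taken at base 122657585 of mm9, with a minus sign for the Gdf3 and Dppa3 side. Only this start had an mm9 position. The other genes were placed by their order in the RefSeq GRCm38.p6 gene table, in which Apobec1 precedes Gdf3 and Foxj2 follows Slc2a3, so "Gdf3 side" and the like name the nearest gene by general knowledge of the locus. Whether a peak lies in an exon, an intron or a UTR was not analysed here.

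The sequence printed here is the 250 bases before the first RefSeq start of Nanog (GRCm38.p6, plus strand), shown because Oct4 was listed at this promoter in some genotypes and not in others. Capitals mark the match to the Oct4-Sox2 composite motif.

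Nanog promoter: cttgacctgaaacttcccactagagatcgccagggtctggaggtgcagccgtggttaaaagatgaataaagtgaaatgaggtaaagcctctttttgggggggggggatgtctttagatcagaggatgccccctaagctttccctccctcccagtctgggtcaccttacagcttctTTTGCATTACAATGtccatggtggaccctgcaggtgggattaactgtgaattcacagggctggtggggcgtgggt

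The motif searched on both strands was CATTGT, any base, then ATGCAAA, and it was found on the minus strand at bases -75 to -62 from this start. The second RefSeq start of Nanog lies downstream, and from there the same match spans bases -151 to -138. Among 32851 promoter windows of 300 bases in the table, 2 hold an exact match to this string (0.00609%), and both are the windows of Nanog. Composite sites that differ from the string were not searched, so this share does not count them. The octamer core ATGCAA, which lies inside the composite match, occurs in 10.7% of the windows. The E-box CACGTG, the sequence to which Myc binds, occurs in 7.15% and has no match in the Nanog windows. Of the 4 genes, 1 had windows in the table; Gdf3, Dppa3 and Slc2a3 did not.

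**Figure D1:**
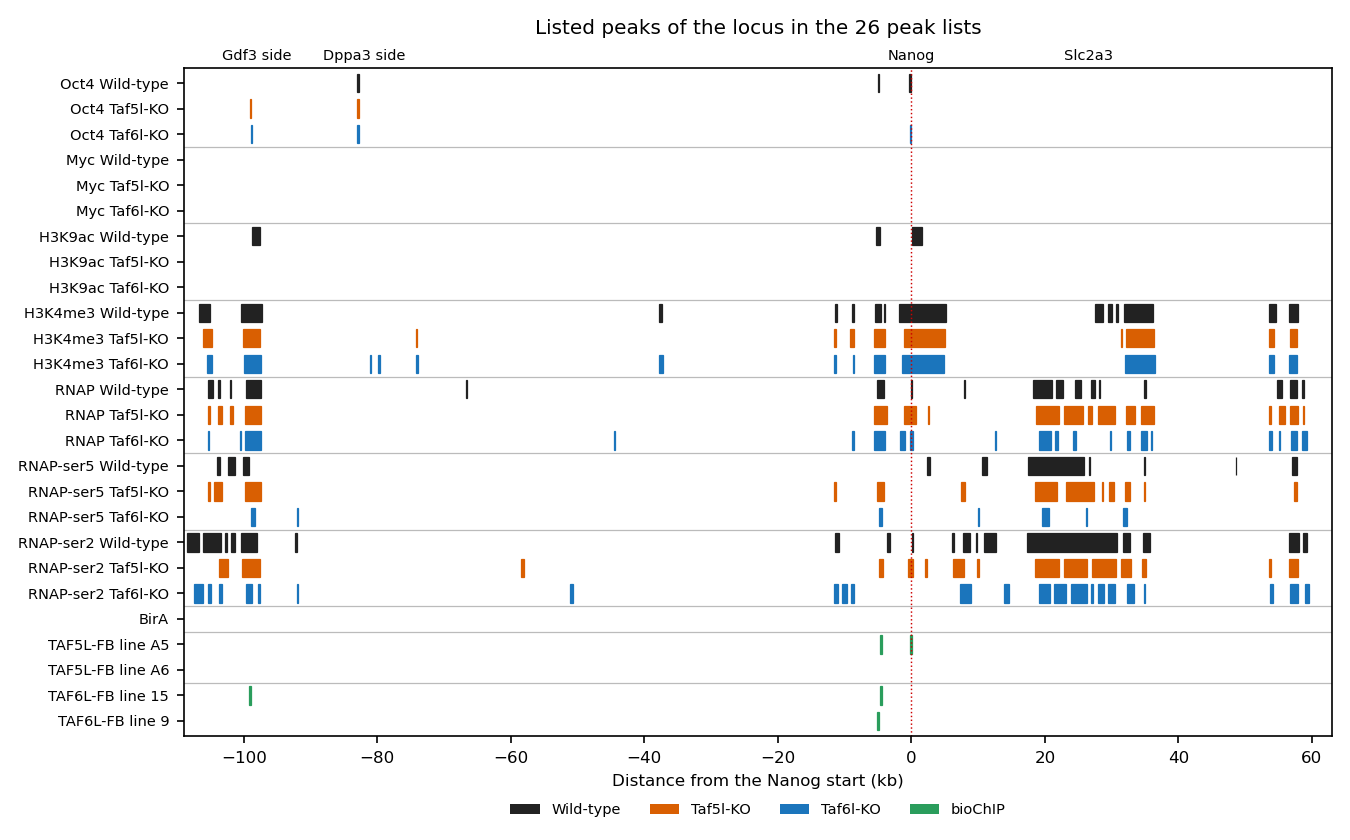
Map of the 194 peaks of the locus, 1 row per list, with the distance from the Nanog start in kb on the horizontal axis. Bars are listed peaks coloured by genotype or as bioChIP, and very short peaks are drawn wider than scale by the outline. The Gdf3 side, the place 5 kb upstream of Nanog, Nanog and Slc2a3 carry most peaks, and the 3 Myc rows are empty.

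Fold enrichment is the authors' ratio of pileup to local background for each peak. It is used only to place a peak within its own list, with rank 1 as the strongest. Lists differ in length and depth, so ranks and fold enrichments standing side by side show no change between genotypes. With 1 library per antibody and genotype, no error and no test between genotypes can be given. A place without a listed peak is only below that list's threshold. After the peak caller scaled ChIP and input to the smaller of both, the Oct4, Myc, H3K9ac and H3K4me3 libraries had 7771755 tags in wild-type, 6245652 in Taf5l-KO and 5923469 in Taf6l-KO cells, and RNAP in the same order 5174150, 6245652 and 5923469. RNAP-ser5 had 3871824, 6245652 and only 1702363 tags, and RNAP-ser2 6295522, 5390622 and 3842867.

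Oct4 had one strong site in this locus, and it was not at Nanog. The peak at -83.0 to -82.8 kb on the Dppa3 side (wild-type peak chr6:122574607-122574796) was listed in all 3 genotypes. Its fold enrichment was 20.2 in wild-type cells (rank 63 of 2564, top 2.46%), 23.3 in Taf5l-KO cells (rank 53 of 3034, top 1.75%) and 17.6 in Taf6l-KO cells (rank 84 of 2049, top 4.1%). The summits of the 3 libraries lay within 14 bp of each other. No list of another target had a peak overlapping it.

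At the Nanog promoter, Oct4 was listed in wild-type and Taf6l-KO cells but not in Taf5l-KO cells. The wild-type peak had its summit at -155 bp, a fold enrichment of 11.3 and rank 486 (top 19%). The Taf6l-KO peak had its summit at -163 bp, a fold enrichment of 7.79 and rank 1174 (top 57.3%). Whether the mm9 start used here is the first or the second RefSeq start was not analysed here, so the distance of the summits from the motif match is not given.

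At the enhancer 5 kb upstream of Nanog (-5.1 to -4.8 kb), Oct4 was listed in wild-type cells and in neither knockout. This was a middling peak of its list, with a fold enrichment of 7.34, rank 1449 of 2564 (top 56.5%) and a −log10 q of 7.03. On the Gdf3 side the order was the other way round. Oct4 was listed at -99.0 kb in Taf5l-KO cells (fold enrichment 4.62, rank 2961, top 97.6%) and at -98.9 kb in Taf6l-KO cells (5.74, rank 1847, top 90.1%), not in wild-type cells, and both peaks are near the bottom of their lists. No Oct4 list had a peak near -45 kb, at Slc2a3 or near +60 kb.

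Of the 3 wild-type Oct4 peaks, 1 was overlapped in Taf5l-KO cells, where 59.1% of the whole wild-type list was. In Taf6l-KO cells 2 of 3 were overlapped, against 46.5% of the list. Peaks without a wild-type counterpart were 1 of 2 in Taf5l-KO cells (50.1% of the list) and 1 of 3 in Taf6l-KO cells (41.7%). With 3 peaks, these shares have exact (Clopper-Pearson) 95% intervals of 0.84 to 90.6% and 9.43 to 99.2%, which hold the list values and cover counting error only.

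Myc, the E-box factor that drives growth genes, had no listed peak in the locus in any genotype. Its lists were short, with 538 peaks in wild-type, 34 in Taf5l-KO and 23 in Taf6l-KO cells, and the nearest wild-type peak to the left lay at -238.4 kb. Over the whole wild-type list 3.9% of Myc peaks were overlapped in Taf5l-KO and 1.67% in Taf6l-KO cells. Of the knockout peaks, 41.2% and 60.9% had no wild-type counterpart. The fragment size of the Myc lists was 95 bp in wild-type, 51 bp in Taf5l-KO and 50 bp in Taf6l-KO cells. The tag size was 50 bp. Median Myc peak widths were 162.5, 87 and 89 bp in the same order. Whether the knockout Myc lists can be compared with the wild-type list was not tested, so these shares show no loss of Myc binding.

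**Figure D2:**
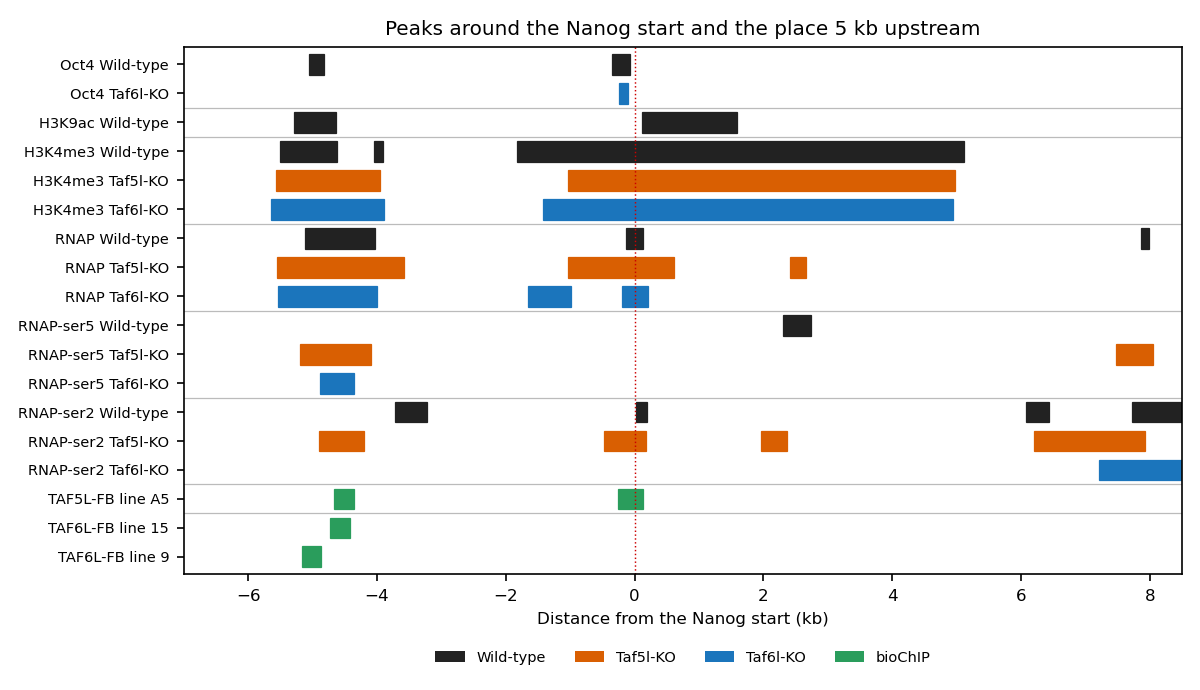
Peaks on either side of the Nanog start (dotted line), 1 row for each list with a peak there, with distance in kb on the horizontal axis. The tagged TAF peaks and the wild-type Oct4 and H3K9ac peaks fall in 2 groups near -5 kb and the start, and the H3K4me3 domain spans the start in each genotype.

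TAF6L-FB was listed at the upstream enhancer and on the Gdf3 side, and TAF5L-FB at the upstream enhancer and the Nanog promoter. TAF5L-FB line A5 had peaks at -4.7 kb (fold enrichment 3.70, rank 97 of 136) and at -0.3 kb (3.96, rank 69), the latter with its summit at -115 bp. TAF6L-FB line 15 had peaks at -99.2 kb (4.05, rank 687 of 1140) and at -4.7 kb (4.23, rank 569). TAF6L-FB line 9 had a single peak at -5.2 kb (4.83, rank 187 of 628). The locus had no peak in TAF5L-FB line A6, whose whole list holds 7 peaks, or in the BirA control, whose list holds 24.

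No TAF region in the locus was made of overlapping peaks from both lines of one protein, although both TAF6L-FB lines had a peak at the upstream enhancer. Without line A5 no TAF5L-FB region is left (0 instead of 2), and without line 15 there is 1 TAF6L-FB region instead of 3. At the upstream enhancer the TAF5L-FB peak of line A5 and the TAF6L-FB peak of line 15 overlapped by 249 bp, while the 2 TAF6L-FB lines had separate peaks 142 bp apart. Across the genome 4.92% of the joined TAF6L-FB regions and 59.6% of the TAF5L-FB regions overlap a region of the other protein. The count in this locus was 1 of 3 and 1 of 2.

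Oct4 and the tagged proteins overlapped at some of these places. The summit of the Oct4 peak at the Nanog promoter was 40 bp from that of TAF5L-FB line A5, and at the upstream enhancer it was 72 bp from that of TAF6L-FB line 9. The enhancer peaks of the other lines did not overlap Oct4: TAF5L-FB line A5 lay 148 bp away with summits 471 bp apart, and TAF6L-FB line 15 lay 96 bp away with summits 406 bp apart. Of the 3 wild-type Oct4 peaks 2 overlapped a TAF5L-FB or TAF6L-FB region, against 10.5% of the wild-type Oct4 list. The exception among the wild-type Oct4 peaks was the strongest, the Dppa3-side site. Of the joined TAF6L-FB regions 1 of 3 overlapped a wild-type Oct4 peak, against 15.5% of all TAF6L-FB regions. On the Gdf3 side the TAF6L-FB peak overlapped the knockout-only Oct4 peaks by 131 bp in Taf5l-KO and 38 bp in Taf6l-KO cells.

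H3K9ac had 3 peaks in the locus, all in wild-type cells. They lay on the Gdf3 side (-98.8 to -97.6 kb, 1126 bp wide, fold enrichment 5.29, rank 1328 of 4131), at the upstream enhancer (-5.3 to -4.6 kb, 649 bp, 3.80, rank 4053) and just inside Nanog (+0.1 to +1.6 kb, 1484 bp, 4.28, rank 3275). In their list they stand in the top 32.1%, 98.1% and 79.3%, so that at the enhancer is close to the weakest listed. Neither knockout had an H3K9ac peak anywhere in the locus.

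The whole H3K9ac lists were short in the knockouts, with 110 peaks in Taf5l-KO and 898 in Taf6l-KO cells. Of the wild-type H3K9ac list, 2.54% was overlapped in Taf5l-KO and 19.2% in Taf6l-KO cells, against 0 of 3 and 0 of 3 here. Of the knockout lists 4.55% and 10.2% had no wild-type counterpart. With 3 peaks, a count of 0 allows a share of up to 70.8% (exact 95% interval), an interval that holds both list values. The −log10 q of the peaks was 3.28 on the Gdf3 side, 1.65 at the enhancer and 1.60 at Nanog. TAF regions overlapped 2 of the 3 H3K9ac peaks, those at the enhancer and at Nanog, against 5.95% of the list. At Nanog this overlap was only 23 bp, with the peak of TAF5L-FB line A5. On the Gdf3 side the TAF6L-FB peak lay 130 bp outside the H3K9ac peak.

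No list had H3K9ac at Slc2a3, although its promoter carried a strong H3K4me3 peak. Among the 4577 wild-type H3K4me3 peaks with at least the fold enrichment of the Slc2a3 peak, 52.1% overlap an H3K9ac peak. Of the 14 wild-type H3K4me3 peaks of the locus 3 did, against 12.2% of that list.

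H3K4me3 was listed in all 3 genotypes at Nanog, at the place taken as the Slc2a3 promoter, on the Gdf3 side and at the left end. At Nanog it formed one of the widest domains of each list, 6940 bp in wild-type (-1.8 to +5.1 kb), 6015 bp in Taf5l-KO and 6363 bp in Taf6l-KO cells. By width these were number 56 of 32370 (top 0.173%), 48 of 32098 and 26 of 29463. By fold enrichment, 10.2, 10.3 and 9.84, the same domains were less extreme, in the top 12.1%, 18.6% and 25.3% of their lists.

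The Slc2a3 promoter came second, with peaks around +34 kb of 4443 bp in wild-type, 4076 bp in Taf5l-KO and 4434 bp in Taf6l-KO cells. Their width ranks were 370, 313 and 116, and their fold enrichments 9.81, 11.8 and 11.2. The Gdf3-side peak was 3056, 2553 and 2470 bp wide, with fold enrichments of 6.38, 5.59 and 5.28, which are middling values in these lists. At the left end of the locus, next to Apobec1, peaks of 1581, 1434 and 672 bp had fold enrichments of 5.90, 8.67 and 5.31.

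Smaller H3K4me3 peaks lay away from these places. Wild-type peaks lay at -37.8 kb (455 bp, fold enrichment 4.57), -11.5 kb (272 bp, 4.35) and -8.9 kb (324 bp, 3.38). That at -37.8 kb was overlapped in Taf6l-KO cells and not in Taf5l-KO cells, and the others were overlapped in both. At the upstream enhancer the wild-type list had pieces of 888 and 132 bp, and each knockout a single peak that overlapped both, of 1614 bp in Taf5l-KO and 1762 bp in Taf6l-KO cells. Their highest fold enrichments were 3.81, 4.82 and 5.34. On the far side of Slc2a3, peaks at +56.6 kb were 1299, 1177 and 1179 bp wide (4.88, 4.84 and 5.86). Those around +53.6 kb were 938, 763 and 739 bp wide and took the top 80.3%, 47.1% and 24.2% of their lists, with fold enrichments of 3.86, 6.56 and 10.0.

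The Dppa3 side, taken as -84 to -70 kb, had no H3K4me3 peak in wild-type cells. Taf6l-KO cells had weak pieces there at -81.1 kb (147 bp, fold enrichment 3.29, top 95.4%) and -79.9 kb (272 bp, 2.97, top 99.5%). A peak at -74.2 kb was listed in Taf5l-KO (165 bp, 5.32) and Taf6l-KO cells (273 bp, 5.67). In the other direction, wild-type pieces at +27.5, +29.4 and +30.7 kb, on the Slc2a3 gene side of its promoter, had no knockout counterpart, and they too were weak (top 87.6%, 85.8% and 97.8%).

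Of the 14 wild-type H3K4me3 peaks, 10 were overlapped in Taf5l-KO cells (84.6% of the whole list) and 11 in Taf6l-KO cells (80.8%). The exact 95% intervals of 41.9 to 91.6% and 49.2 to 95.3% hold the list values. Peaks without a wild-type counterpart were 2 of 11 in Taf5l-KO (14.2% of the list) and 3 of 13 in Taf6l-KO cells (10.5%).

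**Figure D3:**
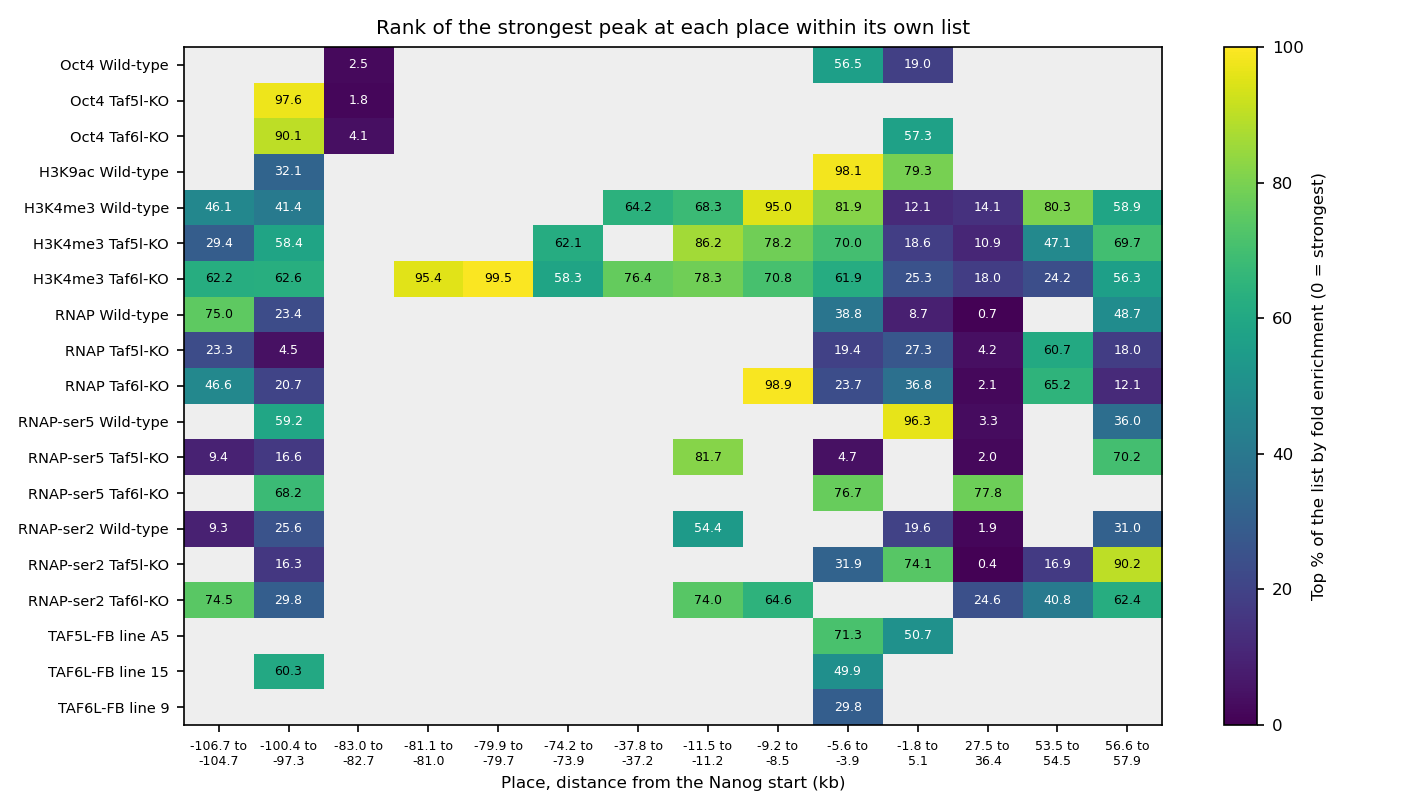
Rank of the strongest peak at each of 14 places, as the top percentage of its own list by fold enrichment, for each list with a peak at any of them. Places are named by their distance from the Nanog start in kb, dark cells are the strongest peaks of a list and grey cells have no listed peak. Oct4 is darkest at -83.0 to -82.7 kb in each genotype, and RNAP at 27.5 to 36.4 kb.

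Total RNA polymerase II had its strongest peak of the locus at the Slc2a3 promoter in each genotype. At +34.8 kb the wild-type RNAP peak had a fold enrichment of 14.2 (rank 207 of 29370, top 0.705%), and the peaks over the same place 9.81 in Taf5l-KO (rank 865, top 4.2%) and 12.4 in Taf6l-KO cells (rank 569, top 2.13%). RNAP-ser5 was listed there in wild-type (5.04, rank 1477) and Taf5l-KO cells (7.04, rank 454), and not in Taf6l-KO cells, whose library was the shallowest. RNAP-ser2 was listed in all 3, with fold enrichments of 5.15 (rank 2669), 8.44 (rank 141, top 0.446%) and 4.03 (rank 14472).

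At the Nanog start, total RNAP was listed in all 3 genotypes. The fold enrichments were 7.63 in wild-type (rank 2545, top 8.67%), 6.03 in Taf5l-KO (rank 5620, top 27.3%) and 5.74 in Taf6l-KO cells (rank 9842, top 36.8%). The phosphorylated forms were listed less regularly. RNAP-ser2 was present at the start in wild-type (4.40, rank 8452) and Taf5l-KO cells and not in Taf6l-KO cells. RNAP-ser5 was listed only in wild-type cells between -1 and +6 kb, by a weak peak at +2.3 kb (3.04, top 96.3%).

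The Gdf3 side carried RNAP in all 3 genotypes, with fold enrichments of 5.68 (rank 6869), 9.71 (rank 926, top 4.5%) and 7.31 (rank 5545). It also carried both phosphorylated forms in all 3, so that every polymerase list had a peak overlapping its wild-type H3K4me3 peak. The Dppa3 side was the opposite case, with no polymerase peak of any form between -84 and -70 kb. The nearest was a wild-type RNAP peak at -66.8 kb (6.39, top 16.6%) with no counterpart in either knockout.

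The upstream enhancer carried total RNAP in all 3 genotypes. The peaks had fold enrichments of 4.76 in wild-type, 6.79 in Taf5l-KO and 6.97 in Taf6l-KO cells. RNAP-ser5 was listed there in Taf5l-KO (6.03, rank 1035, top 4.66%) and Taf6l-KO cells (3.48, top 76.7%), not in wild-type cells. RNAP-ser2 overlapped this place in Taf5l-KO cells alone (4.08, rank 10082, top 31.9%), and the wild-type list had a weak peak beside it at -3.7 kb (3.43, top 84.4%). The place at +56.6 to +57.9 kb carried RNAP in all 3 genotypes (4.39, 6.95 and 8.57). The enhancer known at 45 kb upstream had no Oct4 or TAF peak, and 1 RNAP peak of 135 bp at -44.6 kb in Taf6l-KO cells (4.90).

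Over the Slc2a3 gene the phosphorylated forms of the polymerase had long peaks in wild-type cells. In wild-type cells RNAP-ser2 had a single peak of 13486 bp from +17.2 to +30.7 kb, number 70 of 43039 by width (top 0.163%), with a fold enrichment of 6.39 (rank 802). RNAP-ser5 had a peak of 8436 bp over part of it, number 149 of 45366 by width. In both knockouts the longest RNAP-ser2 and RNAP-ser5 peaks of this stretch were shorter. Total RNAP differed, with a longest peak of 2871 bp in wild-type, 3363 bp in Taf5l-KO and 1764 bp in Taf6l-KO cells. RNAP-ser2 pieces were at most 3581 bp long in Taf5l-KO and 2352 bp in Taf6l-KO cells.

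The share of the stretch from +17 to +33 kb under RNAP-ser2 peaks was 90.7% in wild-type, 76.1% in Taf5l-KO and 53.9% in Taf6l-KO cells. For RNAP-ser5 it was 53.6%, 57.1% and 11.9%, and for total RNAP 34.6%, 63.3% and 20.2%. RNAP-ser2 was therefore widest in wild-type cells, and the other forms in Taf5l-KO cells. For each form the library with the most tags after scaling covered the largest share, and for RNAP-ser5 and RNAP-ser2 the whole order of the shares was that of the tags. The part of depth in these differences was not tested. Downstream of Nanog, from +6 to +13 kb, RNAP-ser2 peaks covered 48.7%, 28.2% and 25.6%.

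**Figure D4:**
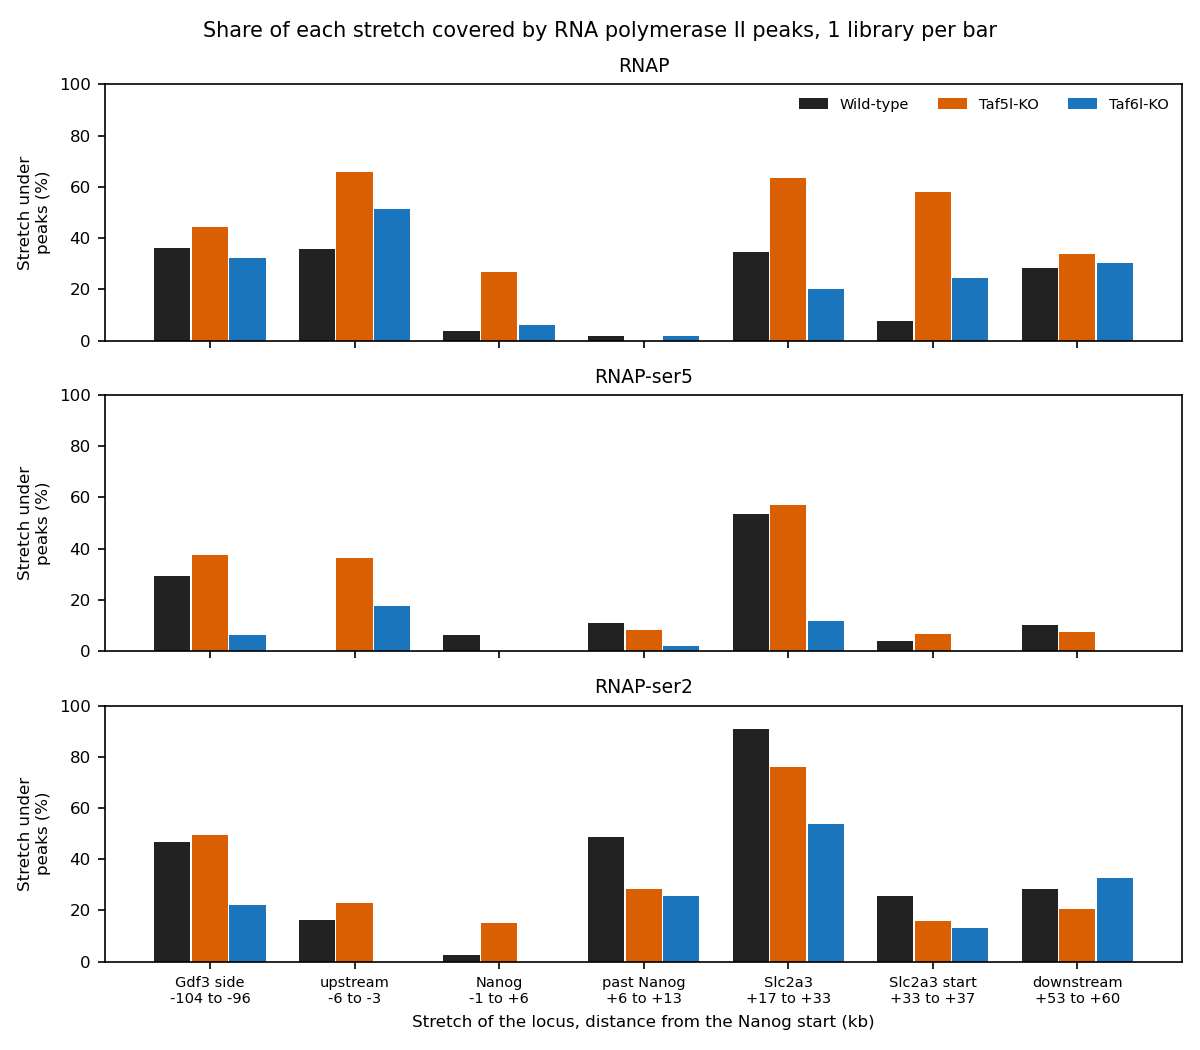
Share of 7 stretches of the locus under listed peaks of total RNAP, RNAP-ser5 and RNAP-ser2, in percent from 0 to 100, with 1 bar per genotype and no error bars since each bar is 1 library. RNAP-ser2 covers 90.7, 76.1 and 53.9% of the Slc2a3 stretch from +17 to +33 kb, in the order wild-type, Taf5l-KO and Taf6l-KO.

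RNAP peaks of this locus were kept in 15 of 17 cases in Taf5l-KO cells, against 52.5% of the whole list. With at least 50% of the wild-type peak covered, 11 of 17 were kept, and the whole-list share at that cover was not counted. RNAP peaks covered 13085 bp of the locus in wild-type, 22521 bp in Taf5l-KO and 12356 bp in Taf6l-KO cells. The counts were not matched for width. In Taf6l-KO cells 11 of 17 were kept (60.4% of the list). RNAP-ser5 peaks were kept in 6 of 10 cases in Taf5l-KO (26.2% of the list) and 1 of 10 in Taf6l-KO cells (16.5%). RNAP-ser2 peaks were kept in 12 of 18 (36.6%) and 10 of 18 cases (38.7%). Several of these peaks lie side by side over the Slc2a3 stretch, so they are not independent, and no interval is given for them.

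Polymerase peaks with no wild-type counterpart were 3 of 17 for RNAP in Taf5l-KO (27.3% of the list) and 9 of 20 in Taf6l-KO cells (33.2%). For RNAP-ser5 they were 7 of 13 (48.3%) and 6 of 7 (52.6%), and for RNAP-ser2 4 of 15 (49.8%) and 7 of 23 (56.7%). The 6 of 7 come from the shallowest library.

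Counted over all lists, the Gdf3-side H3K4me3 place had a peak in 16 of 26 lists and the upstream enhancer in 14. The Nanog domain had a peak in 13, the Slc2a3 side in 12 and the place at +56.6 kb in 11. The Dppa3-side Oct4 site had a peak in 3. A wild-type H3K4me3 peak overlaps peaks of 5 lists at the median, its own included, and 6.1% of the 32370 such peaks reach 13 lists, 2.3% reach 14 and 0.327% reach 16. These shares were not matched for width, and a wide peak can overlap more lists. The wild-type Nanog domain is 6940 bp wide, against a median of 788 bp in its list. The wild-type Slc2a3 H3K4me3 peak overlapped H3K4me3 and all polymerase forms in every genotype and no other list. In Taf6l-KO cells RNAP-ser5 counts here only through a weak peak at +31.7 kb (3.46, top 77.8%) at the edge of the H3K4me3 peak, not at the promoter. This pattern is shared with 1917 other wild-type H3K4me3 peaks (5.92%). The exact pattern of the Gdf3 side is shared by 1 other peak (chr15:38004296-38009874, fold enrichment 8.85), and those of Nanog and of the upstream enhancer by 0 of 32370. How many of all such peaks have an unshared pattern was not counted. For smaller H3K4me3 peaks of the locus, the others with the same pattern ran from 2 at -11.5 kb to 625 at -4.0 kb.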

How the data were processed

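The data are 26 ChIP-seq peak lists, 1 per immunoprecipitated library. The members and the places described were chosen with earlier results of these data known. The submitters' processing notes name Bowtie2 2.3.2, deepTools 2.5.3, MACS2 2.1.1.20160309 and the build mm9. Per the file headers, MACS2 compared each library with an input at a q cutoff of 0.05. It allowed 1 tag per position and scaled the larger library to the smaller. The antibody libraries of a genotype had the same input tag count, 7771755 in wild-type, 6245652 in Taf5l-KO and 5923469 in Taf6l-KO cells. Input and genotype therefore cannot be told apart. The samples include a wild-type input and no knockout input. H3K9ac, H3K4me3 and the RNA polymerase II lists were called with broad linking (second cutoff 0.1), per the file headers, which joins neighbouring pieces and sets their width. The 4 TAF lists have a preset fragment size of 300 bp, per the file headers, and the BirA list has 49 bp.

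The deposited lists give each peak's width, its pileup, a signal that depends on depth, its fold enrichment, a ratio of pileup to the local background, and −log10 q. Pileup was not printed. The 21 antibody libraries held 1702363 to 22968606 unique tags, and the 5 bioChIP libraries 18292747 to 27775010. Libraries were grouped by their labels.

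Peaks of the autosomes, X and Y were read with Python 3.11.15 and pandas 2.3.3, and ranked within each list by fold enrichment or width. A peak counted as kept with an overlap of at least 1 bp, and the share over the whole list stands beside each count. The TAF regions of a protein are the union over its lines, less any region that shares a base with a BirA peak. Peaks named one by one are all Oct4, H3K9ac and TAF peaks and all wild-type H3K4me3 peaks of the locus. Of the polymerase lists the strongest peaks at the main places are named, and not every peak at a small H3K4me3 peak. RNA polymerase II peaks at -66.8 and -44.6 kb were named after their values were seen. So were H3K4me3 peaks of the knockouts alone and the peaks over Slc2a3. No test between genotypes was made. The overlap and merging steps were tested on simulated intervals. Alternatives were a −log10 q of at least 5, an overlap of at least 50%, merging across gaps under 1000 bp, using 1 tagged line at a time and keeping only regions of both lines.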

Additional observations from a re-analysis of the deposited data

How the results depend on the processing

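Of 96 values recomputed under the alternatives, 57 stayed within 1.5 times the reported count and 39 did not. The 57 include counts of 0 that stayed 0, as for Myc, which a stricter threshold could not raise. No count turned its direction, since none has a sign. The alternatives with the largest effect keep fewer peaks by construction.

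With a −log10 q of at least 5, H3K4me3 kept 4 peaks in wild-type, 5 in Taf5l-KO and 7 in Taf6l-KO cells, and RNAP 5, 6 and 5. RNAP-ser2 kept 1, 1 and 0, RNAP-ser5 0, 2 and 0, and wild-type H3K9ac 0. TAF5L-FB line A5, TAF6L-FB line 15 and line 9 kept 0 each, so the joined regions were 0 for TAF5L-FB and 0 for TAF6L-FB. At this threshold in both lists, 4 of 4 wild-type H3K4me3 peaks were kept in either knockout and 3 of 5 RNAP peaks in either. For RNAP-ser2 it was 0 of 1 in either, and for RNAP-ser5 0 of 0.

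With at least 50% of the wild-type peak covered, 7 of 17 RNAP and 0 of 10 RNAP-ser5 peaks were kept in Taf6l-KO cells. For RNAP-ser2, 7 of 18 were kept in Taf5l-KO and 5 of 18 in Taf6l-KO cells. Merging peaks less than 1000 bp apart left 11 RNAP peaks in Taf5l-KO cells, and 10 RNAP-ser2 peaks in wild-type and 14 in Taf6l-KO cells. Of those 10, 7 were kept in Taf5l-KO and 6 in Taf6l-KO cells.

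Leaving out 1 tagged line at a time gave 0 to 2 TAF5L-FB regions and 1 to 2 TAF6L-FB regions. Regions found in both lines were 0 for TAF5L-FB and 0 for TAF6L-FB. No paired analysis was possible because each antibody and genotype has 1 library. The RNAP-ser5 library of Taf6l-KO cells was the shallowest, with 1702363 tags, and the effect of depth was not tested.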
